A study of Mus musculus with 6 samples.

Results

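The genes described here are the transcripts of the insulin-like growth factor (IGF) system that act outside the cell or at its surface: 6 IGF-binding proteins (Igfbp2 to Igfbp7), the ligands Igf1 and Igf2, and the receptors Igf1r and Igf2r. They were taken by gene symbol from a table of read counts, where all 10 were found among 30438 symbols. The list was drawn up because Igfbp5 and Igfbp6 had fallen strongly in the same comparison, so the values of its members are a description and carry no p-value. RNA came from HEI-OC1, a conditionally immortalised mouse organ of Corti line used as a model of hair cell toxicity, in 2 groups of 3 libraries. The control group is labelled wild type, and the other group is labelled as an Nrf2 knockout of the same line. Cells of both groups were grown at 33 °C and 10% CO2 in medium with 10% serum and antibiotics, and no drug is recorded. The submitters sought the basis of an increased resistance to cisplatin in the knockout line. The sources used here do not say whether that line is 1 clone or where the gene was edited.

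IGF1 and IGF2 signal through IGF1R, a receptor tyrosine kinase that feeds the PI3K-AKT and ERK pathways, and IGF1 is known for its part in cochlear development and hair cell survival. IGF2R, the cation-independent mannose 6-phosphate receptor, carries IGF2 to the lysosome and sorts lysosomal enzymes. The secreted binding proteins hold IGFs away from the receptor or carry them to it, and proteases such as pappalysins release the ligand by cutting the binding protein.

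Library totals lay between 29130007 and 51285343 counts. Nfe2l2, which encodes NRF2, stood at 74.2, 126.5 and 96.7 CPM (counts scaled to library size by TMM) in control replicates 1, 2 and 3, and at 395.7, 235.6 and 204.5 CPM in libraries labelled Nrf2 KO. The transcript of the targeted gene thus goes against the label, and directions below are those of the libraries labelled Nrf2 KO. A count over the whole gene does not show whether functional protein was made. The second principal component, with 41.2% of the variance, separated the 2 libraries numbered 1 from the other 4. For some results, values without 1 or both of those libraries are also given. The labels call the cells cochlear stem cells. The progenitor marker Sox2 and the hair cell genes Atoh1, Slc17a8 and Slc26a5 had 0 counts in all 6 libraries. Other markers of these cells were detected. Of 13 supporting cell and progenitor markers 8 had enough counts to test, and of 11 hair cell markers 2 had. Of the 8, Jag1 stood at 106.6 ± 7.52 CPM in control and 158.4 ± 28.4 CPM in libraries labelled Nrf2 KO. Sox9 stood at 8.02 ± 1.6 and 36.6 ± 10.6 CPM, and Hes1 and Nes also had higher means in libraries labelled Nrf2 KO. Cdkn1b, Fgfr3, S100a1 and Gfap had lower means there. The hair cell gene Myo6 stood at 37.3 ± 6.25 and 48.3 ± 14.65 CPM (SD, n = 3 each). The labels do not say that replicates were separate cultures, so p-values below reflect only how these 3 libraries per group vary, possibly for technical reasons.

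Igfbp5 encodes a secreted protein that binds IGFs and extracellular matrix. Its counts were 1011, 3983 and 1880 in control replicates 1, 2 and 3 and 19, 282 and 163 in the libraries labelled Nrf2 KO, which is 25.8, 89.6 and 48.5 CPM against 0.606, 5.74 and 3.96 CPM. Every control library was above every library labelled Nrf2 KO, and replicate 1 was the lowest library in both groups. The means were 54.6 ± 32.3 and 3.44 ± 2.61 CPM (SD, n = 3 each), 15.9-fold lower in the libraries labelled Nrf2 KO, with a fitted log2 fold change of -3.98 (SE 0.86). Without Nrf2 KO replicate 1 the log2 fold change was -3.49 (SE 0.57).

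Igfbp6, a binding protein with a preference for IGF2, was scarce in all libraries. It had 41, 44 and 36 counts in control replicates 1, 2 and 3 and 6, 10 and 12 in the libraries labelled Nrf2 KO, which is 1.05, 0.990 and 0.928 CPM against 0.192, 0.204 and 0.292 CPM. The groups did not overlap, and the libraries of each group lay close together. The means were 0.988 ± 0.0591 and 0.229 ± 0.0547 CPM (SD, n = 3 each), with a log2 fold change of -2.09 (SE 0.31). Summed over each group, 121 and 28 counts give a level 4.29 times higher in the control libraries, with an exact 95% interval of 2.83 to 6.73 that covers counting error only.

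Igfbp4 encodes a binding protein that mostly restrains IGF action and is the main substrate of pappalysin-1. It stood at 133.0, 187.9 and 181.9 CPM in control replicates 1, 2 and 3 and at 31.8, 98.4 and 96.7 CPM in libraries labelled Nrf2 KO. All control libraries were above those labelled Nrf2 KO, whose replicate 1 was well below the other two. The log2 fold change was -1.15 (SE 0.44) with all libraries and -0.78 (SE 0.17) without Nrf2 KO replicate 1.

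Igfbp7 and Igfbp2 lay on the other side. Igfbp7, a matrix-associated protein that binds IGFs weakly, stood at 124.1, 79.0 and 103.3 CPM in control replicates 1, 2 and 3 and at 157.0, 145.0 and 182.5 CPM in libraries labelled Nrf2 KO. The groups did not overlap, and the log2 fold change was 0.66 (SE 0.21). Igfbp2 was near the limit of detection, with 3, 0 and 2 control counts against 12, 13 and 24 in the knockout-labelled libraries. Its 5 and 49 summed counts give a level 9.87 times higher in the libraries labelled Nrf2 KO, with an exact 95% interval for counting error of 3.95 to 31.7. Igfbp2 and Igfbp5 are neighbouring genes on mouse chromosome 1 with no protein-coding gene between them in RefSeq (GRCm38.p6), and they differed between the groups in opposite directions. Igfbp3, the main carrier of IGFs in serum, had 0 counts in all 6 libraries, where 3 counts correspond to 0.0611 to 0.0957 CPM.

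**Figure D1:**
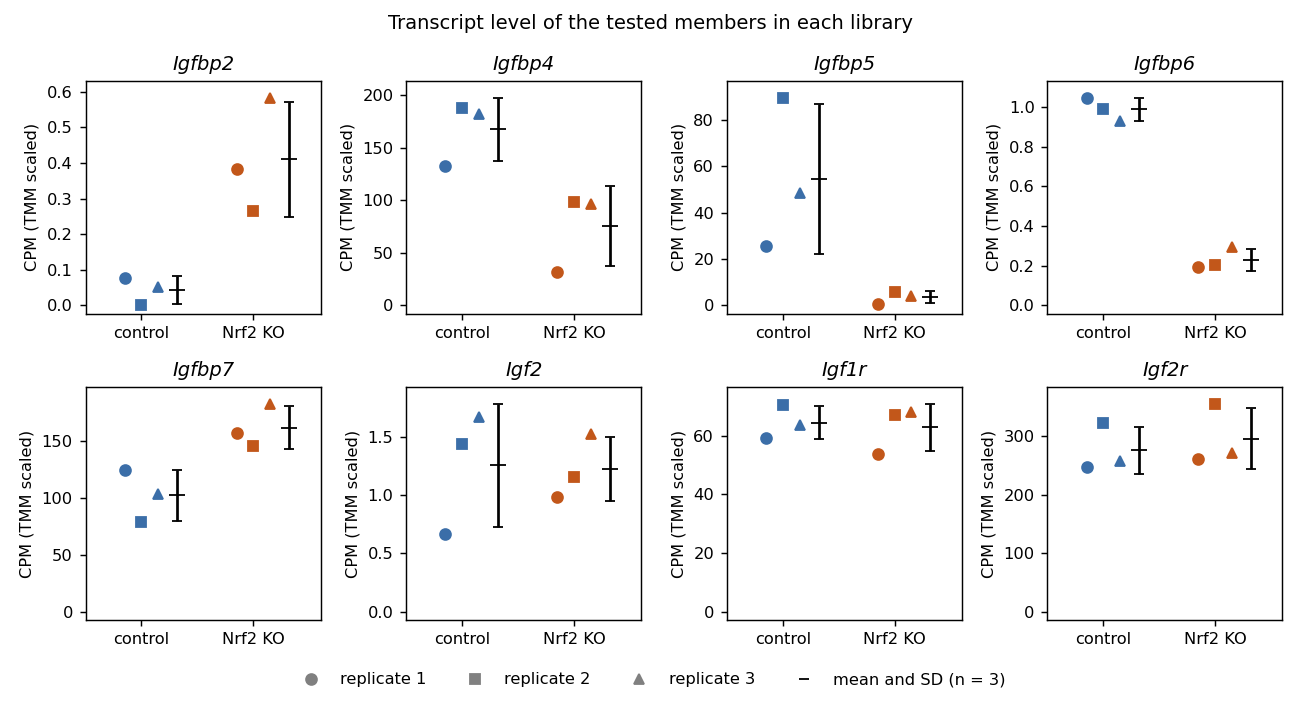
Level of the 8 members with enough counts to test, in CPM with TMM scaling on a linear axis from 0, for control (blue) and Nrf2 KO (orange) libraries; symbols give the replicate number and black marks the mean with its SD (n = 3). The groups are apart for Igfbp2, Igfbp4, Igfbp5, Igfbp6 and Igfbp7, and mixed for Igf2, Igf1r and Igf2r.

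Few reads were counted for the ligands and many for the receptors. The symbols of the table are those of rat genes, and a mouse read need not match every rat gene equally well. A count of 0 or near 0, for any gene here, therefore need not mean absent RNA. Igf1 had 0 counts in all 3 controls and 0, 3 and 2 in libraries labelled Nrf2 KO, at or under the limit of 3 counts, so no fold is given. Igf2 had 26, 64 and 65 counts in control replicates 1, 2 and 3 and 31, 57 and 63 in the libraries labelled Nrf2 KO, or 1.26 ± 0.530 and 1.23 ± 0.277 CPM (SD, n = 3 each). Its groups overlapped, and its log2 fold change of -0.04 (SE 0.41) changed sign between processing alternatives.

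Igf1r, the signalling receptor, stood at 59.2, 70.4 and 63.7 CPM in control replicates 1, 2 and 3 and at 53.7, 66.9 and 68.0 CPM in libraries labelled Nrf2 KO. Igf2r, the clearance receptor, stood at 247.6, 322.0 and 257.5 CPM against 260.7, 355.1 and 270.9 CPM. In both genes the groups overlapped, and the log2 fold changes were -0.03 (SE 0.16) for Igf1r and 0.10 (SE 0.20) for Igf2r. Replicate 2 was the highest Igf2r library in both groups.

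Set beside all genes, 8 of the 10 members had enough counts to test; Igf1 and Igfbp3 did not. At an adjusted p under 0.05 in edgeR (quasi-likelihood, Benjamini-Hochberg over 14618 genes), 2 members (Igfbp5 and Igfbp6) passed as lower and 0 as higher, where 3.45% of all genes passed as lower and 4.83% as higher. DESeq2 called 2 members lower and 2 higher (Igfbp2 and Igfbp7), where it called 19.9% of all genes in either direction. The groups did not overlap in 5 of the 8, against 34.2% of all genes tested. These counts follow in part from the choice of the list on this comparison, and Igfbp2 and Igfbp6 passed the filter on low counts only through the group in which they were higher, so nothing is read from them. Without any 1 library other than Nrf2 KO replicate 1, 0 members passed; the share of all genes that passed was then 1.30% to 2.56%. Without Nrf2 KO replicate 1, 3 members passed as lower (Igfbp4 added) and 2 as higher (Igfbp2 and Igfbp7), where 30.2% of all genes passed in either direction. The same limits hold for the counts with a library left out, and nothing is read from those either.

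Libraries that share a replicate number deviated together from their group means, and the ratio within a number was therefore also taken. Libraries of different numbers were not compared in this way, so a pairing by number is not established. Igfbp5 was 42.5, 15.6 and 12.2 times lower in the library labelled Nrf2 KO than in the control library of numbers 1, 2 and 3. Igfbp4 was 4.19, 1.91 and 1.88 times lower, and Igfbp6 5.46, 4.86 and 3.18 times lower. Igfbp7 was 1.26, 1.84 and 1.77 times higher. Each of these genes kept 1 direction in all 3 numbers, with the ratio of number 1 the largest for the 3 lower genes and the smallest for Igfbp7. With the replicate number as a block, Igfbp4, Igfbp5 and Igfbp6 passed as lower and Igfbp2 and Igfbp7 as higher, where 18.3% of all genes passed in either direction. The list was chosen on this same comparison. Igfbp2 and Igfbp6 also passed the filter on low counts only through the group in which they were higher. Nothing is therefore read from these calls.

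**Figure D2:**
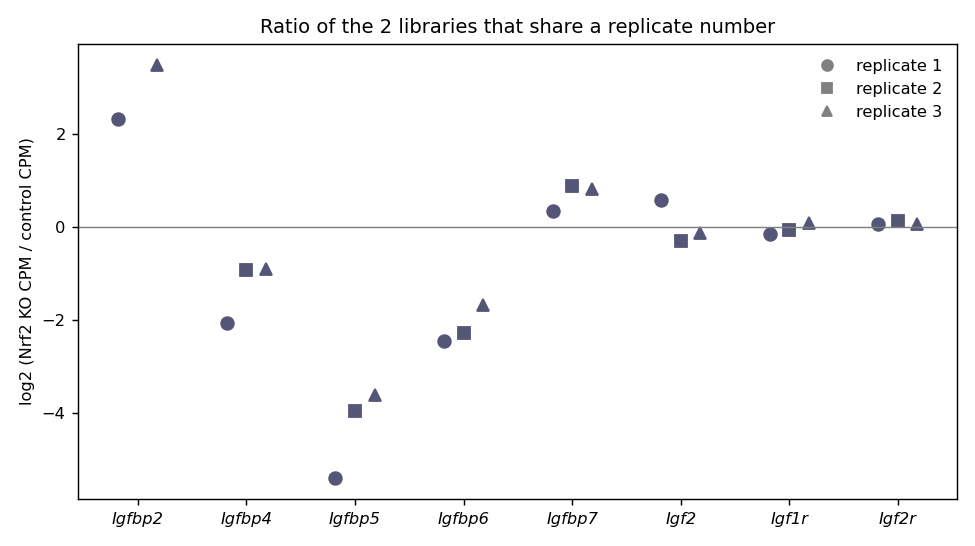
Log2 ratio of CPM in the library labelled Nrf2 KO to the control library with the same replicate number, for each member and number; 0 is no difference, and Igfbp2 has no point for number 2, where the control library had 0 counts. Igfbp4, Igfbp5 and Igfbp6 lie below 0 and Igfbp7 above 0 in all 3 numbers, while Igf1r and Igf2r lie between -0.14 and 0.14 and Igf2 runs from -0.31 to 0.58.

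Levels of different genes were compared per transcript length, as FPKM (fragments scaled to gene length and library size), from the counts of each library and the gene length that the authors' deposited FPKM table implies. In the control libraries the order was Igfbp7 (76.0 ± 17.1 FPKM), Igfbp4 (64.0 ± 11.2), Igfbp5 (27.8 ± 16.5), Igf2r (25.9 ± 3.82), Igf1r (4.63 ± 0.400), Igfbp6 (0.919 ± 0.0633), Igf2 (0.227 ± 0.0940) and Igfbp2 (0.0242 ± 0.0222; SD, n = 3 each). Igfbp7 and Igfbp4 overlapped, as did Igfbp5 and Igf2r; the other neighbours among these 8 did not. In the libraries labelled Nrf2 KO the order was Igfbp7 (118.6 ± 14.0 FPKM), Igfbp4 (27.9 ± 12.9), Igf2r (27.3 ± 3.96), Igf1r (4.45 ± 0.278) and Igfbp5 (1.67 ± 1.24), so that Igfbp5 stood below both receptors. Igfbp4 and Igf2r overlapped there, and so did the scarce genes Igfbp2 (0.229 ± 0.0848 FPKM), Igf2 (0.217 ± 0.0385) and Igfbp6 (0.209 ± 0.0414), each with its neighbour. The authors' deposited table gives Igfbp5 27.6 FPKM for control and 1.68 for Nrf2 KO. The symbols of the table are those of rat genes, and a mouse read need not match every rat gene equally well, so this order is less certain than the ratio of 1 gene between groups.

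The summed level of the 5 detected binding proteins was 158.5, 177.4 and 170.1 FPKM in control replicates 1, 2 and 3 and 138.5, 141.5 and 165.8 FPKM in the libraries labelled Nrf2 KO, so 2 of the latter were below every control library and the third lay within the control range. The make-up of that sum differed more. Igfbp7 was 58.7%, 33.2% and 44.7% of it of the control sums and 90.1%, 72.5% and 77.4% of the Nrf2 KO sums. Igfbp4 was 37.8 ± 4.72% and 18.6 ± 8.25%, and Igfbp5 16.2 ± 8.84% and 1.12 ± 0.864% (SD, n = 3 each). Igfbp2 and Igfbp6 together were under 1% in every library. In bulk RNA, fewer cells that express a gene and less RNA per cell cannot be told apart.

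**Figure D3:**
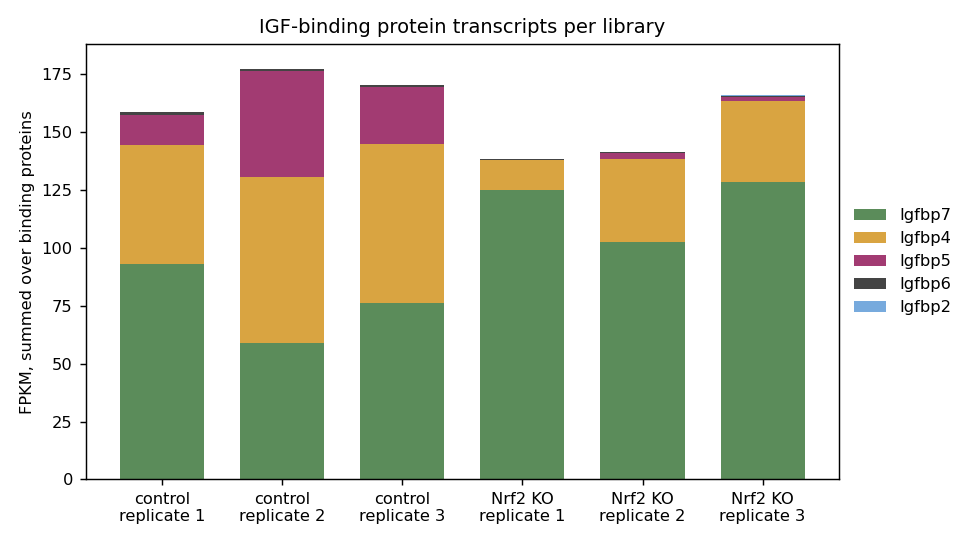
Stacked FPKM of the 5 detected IGF-binding proteins in each library, on a linear axis from 0. Igfbp7 fills 33.2% to 58.7% of the control bars and 72.5% to 90.1% of the Nrf2 KO bars, and the Igfbp5 segment is nearly gone in the latter.

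The promoters of the 4 binding proteins whose groups did not overlap and that carried at least 28 counts in each group are shown because NRF2 acts through a short DNA motif. Igfbp2, whose groups did not overlap either, had 5 summed control counts and is not printed. NRF2 and its small MAF partners bind the antioxidant response element, whose core TGACNNNGC was searched on both strands of the 300 bases from 250 before to 50 after each start (RefSeq, GRCm38.p6), along with the AP-1 site TGANTCA, the TATA box TATAAA and the GC box GGGCGG. The first 2 motifs can overlap. Matches are in capitals and all else is in lower case, 5′ to 3′ in the direction of the gene.
Igfbp5 promoter, chr1:72874816-72875115 (- strand): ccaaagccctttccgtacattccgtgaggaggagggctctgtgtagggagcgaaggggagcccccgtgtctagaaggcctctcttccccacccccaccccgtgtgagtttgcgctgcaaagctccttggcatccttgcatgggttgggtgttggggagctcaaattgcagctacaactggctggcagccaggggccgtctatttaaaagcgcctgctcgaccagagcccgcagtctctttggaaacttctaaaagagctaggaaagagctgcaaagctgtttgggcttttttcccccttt
Igfbp6 promoter, chr15:102143936-102144235 (+ strand): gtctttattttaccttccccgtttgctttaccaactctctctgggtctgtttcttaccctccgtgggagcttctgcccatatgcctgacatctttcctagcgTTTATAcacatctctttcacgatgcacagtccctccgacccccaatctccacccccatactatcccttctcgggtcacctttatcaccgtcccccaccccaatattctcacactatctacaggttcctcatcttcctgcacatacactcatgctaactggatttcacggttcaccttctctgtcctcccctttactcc
Igfbp4 promoter, chr11:99040994-99041293 (+ strand): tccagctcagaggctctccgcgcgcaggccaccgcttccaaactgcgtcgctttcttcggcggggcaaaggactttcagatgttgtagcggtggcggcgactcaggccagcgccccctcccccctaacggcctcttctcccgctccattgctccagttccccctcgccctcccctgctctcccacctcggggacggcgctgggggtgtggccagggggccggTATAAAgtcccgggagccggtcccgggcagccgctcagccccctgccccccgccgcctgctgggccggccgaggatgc
Igfbp7 promoter, chr5:77407996-77408295 (- strand): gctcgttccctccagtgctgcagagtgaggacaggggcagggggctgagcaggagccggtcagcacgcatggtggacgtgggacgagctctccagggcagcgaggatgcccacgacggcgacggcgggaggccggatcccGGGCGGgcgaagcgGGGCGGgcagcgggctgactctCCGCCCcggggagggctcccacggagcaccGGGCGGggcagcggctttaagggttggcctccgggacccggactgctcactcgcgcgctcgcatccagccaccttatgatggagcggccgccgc
The core TGACNNNGC was in none of these 4 windows, nor was TGANTCA. Among all 32851 promoter windows of the table, 12.4% held TGACNNNGC, 7.81% TGANTCA, 13.6% TATAAA and 35.7% GGGCGG. The Igfbp4 window held TATAAA with its first base at -28 from the start, and the Igfbp6 window held it on the opposite strand at -148. The Igfbp7 window held 4 GC boxes, and that of Igfbp5 held none of the 4 motifs. G and C made up 56.3% of the Igfbp5 window, 49.7% of that of Igfbp6, 71.3% of that of Igfbp4 and 73.3% of that of Igfbp7, against a median of 52.7% over all windows. All 10 members had at least 1 window, 14 in all, and TGACNNNGC was in 2 of them, at the second listed start of Igfbp2 and of Igf2. TGANTCA was in that same Igfbp2 window, at -39, and in the Igf1 window, at -37. These are matches of letters in 1 short window and not binding sites, and no binding was measured.

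The rest of the IGF axis was read from a list of 71 other genes, of which 70 were in the table and 62 had enough counts to test. This list was chosen with earlier results of these data known, so its shares beside those of all genes are a description. In the libraries labelled Nrf2 KO, 6 of the 62 were higher and 3 lower, 14.5% in all, where 8.28% of all genes passed (edgeR, Benjamini-Hochberg adjusted p under 0.05). Of the 6, Pappa and Pappa2 passed the filter on low counts only through the libraries labelled Nrf2 KO. With a filter of 1 CPM they were not tested. Of 60 genes 4 were then higher and 3 lower, 11.7% against 9.02% of all genes. Over the 62 genes the median log2 fold change was 0.25, against 0.04 over all genes tested, and 46 of the 62 values were above 0 (74.2%, against 53.6% of all genes). With the replicate block 11 were higher and 3 lower, which is 22.6% of the list against 18.3% of all genes. With DESeq2 12 were higher and 3 lower, 24.2% of the list against 19.9% of all genes. Leaving out Nrf2 KO replicate 1 gave 19 and 6, where 30.2% of all genes passed. Without any 1 of the other 5 libraries at most 1 gene was higher and 0 were lower: Pappa passed without control replicate 1, Pappa2 without control replicate 3, Adam12 without Nrf2 KO replicate 2, Tsc1 without Nrf2 KO replicate 3, and none without control replicate 2.

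By edgeR's test 4.83% of all genes passed as higher and 3.45% as lower. Of 6 tested genes for proteases that cut binding proteins and for their inhibitors, 3 were higher and 0 lower, all 3 of them proteases. Of these, Pappa and Pappa2 passed the filter on low counts only through the libraries labelled Nrf2 KO and are not tested with a filter of 1 CPM, so their values are given as a description. Pappa encodes pappalysin-1, which cleaves IGFBP4 and IGFBP5. It had 0 counts in each control library and 10, 17 and 15 in the libraries labelled Nrf2 KO, at least 4.65-fold higher against a limit of 3 counts per control library. Pappa2 encodes pappalysin-2, which cleaves IGFBP3 and IGFBP5. It had 0, 0 and 3 counts against 16, 37 and 30, a ratio of 27.9 with an exact 95% interval for counting error of 9.21 to 137.8. Both pappalysins were scarce in every library, and neither had overlapping groups.

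Adam12, a membrane metalloprotease known to cleave IGFBP3 and IGFBP5, was far more abundant. It stood at 15.5, 22.5 and 19.2 CPM in control replicates 1, 2 and 3 and at 69.0, 187.7 and 156.5 CPM in libraries labelled Nrf2 KO, without overlap (log2 fold change 2.85, SE 0.40, adjusted p = 0.0120 by edgeR). Nrf2 KO replicate 1 was the lowest of its group, as it was for Igfbp4 and Igfbp5. The other tested genes of the group, the serine protease Htra1, the pappalysin inhibitor Stc2 and the metalloprotease Adam9, were named after their values were seen and did not pass in edgeR's test with all libraries. Htra1 stood at 169.3, 254.8 and 256.4 CPM against 169.8, 668.1 and 707.5 CPM, so that Nrf2 KO replicate 1 lay at the level of the control libraries. Stc2 had the same pattern, with 12.1, 16.7 and 12.3 CPM against 13.5, 45.8 and 43.3 CPM, and DESeq2 called it higher (adjusted p = 0.0339). Without Nrf2 KO replicate 1 both passed in edgeR, Htra1 with a log2 fold change of 1.596 (adjusted p = 0.00306) and Stc2 with 1.695 (adjusted p = 0.00122). In that fit 30.2% of all genes passed. The library left out is the one that lay at the control level in both genes, so nothing is read from these calls. Adam9 lay the other way with overlapping groups, 91.9 ± 34.8 against 74.5 ± 41.9 CPM (SD, n = 3 each). The other pappalysin inhibitor Stc1 had 0 counts in all libraries.

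Among 14 tested insulin receptor and adaptor genes, 1 (Shc1) was higher and 0 lower by edgeR's test. Of all genes, 8.28% passed in either direction. DESeq2 also called Irs2 higher, and the fit with the replicate block called Grb10 and Ptpn11 higher. Shc1, an adaptor that links receptor tyrosine kinases to the ERK pathway, stood at 115.7, 116.5 and 113.6 CPM in control replicates 1, 2 and 3 and at 183.5, 192.1 and 195.4 CPM in libraries labelled Nrf2 KO (log2 fold change 0.72, SE 0.13, adjusted p = 0.0249 by edgeR). Its groups were far apart relative to their spread, and it lost the call without a filter on low counts (adjusted p = 0.0544 by edgeR).

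Of 28 tested genes of the PI3K, AKT and mTOR chain, 2 were higher and 3 lower. Over all genes, 4.83% passed as higher and 3.45% as lower. Tsc1, a brake on mTOR complex 1, stood at 37.2, 37.8 and 38.5 CPM in controls and at 75.0, 75.9 and 69.3 CPM in those labelled Nrf2 KO (log2 fold change 0.96, SE 0.13, adjusted p = 0.00884 by edgeR). Ddit4, a stress-induced inhibitor of the same complex that acts through the TSC proteins, moved the other way, from 11.6 ± 0.867 to 4.79 ± 1.28 CPM (log2 fold change -1.27, SE 0.25, adjusted p = 0.0316 by edgeR; SD, n = 3 each). The catalytic subunit Pik3cb was higher, 16.7 ± 1.47 against 30.1 ± 2.86 CPM, and Pik3cd, another catalytic subunit, lower, 1.25 ± 0.0457 against 0.524 ± 0.0933 CPM. Pik3cd lost the call without a filter on low counts (adjusted p = 0.0716 by edgeR). Phlpp1, an AKT phosphatase named after its values were seen, was the fifth gene to pass, 60.5 ± 6.26 against 39.1 ± 1.70 CPM, and lost the call with library size as the only scaling (adjusted p = 0.0605 by edgeR) and without a filter on low counts (0.0676). The other 23 genes of the chain did not pass in edgeR's test with all libraries and no block. Gsk3b was called higher by DESeq2 and with the replicate block, Rps6kb1 by DESeq2 and Foxo1 with the block.

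None of the 3 tested IGF2 RNA-binding proteins, the 4 surface partners of binding proteins or the 7 mannose 6-phosphate sorting genes passed in edgeR's quasi-likelihood test. At an unadjusted p under 0.05, 16 genes of the whole axis list were higher and 5 lower. The share of all genes under that threshold was not taken, so nothing is read from these counts. Igf2bp2, which binds Igf2 messenger RNA, stood at 135.0 ± 13.1 and 193.0 ± 49.8 CPM, and Igf2bp3 at 27.4 ± 2.43 and 36.6 ± 2.18 CPM (SD, n = 3 each). The endocytic receptor Lrp1 was at 352.3 ± 21.8 and 631.0 ± 179.7 CPM and passed with the replicate block and with DESeq2, which also called Igf2bp3 higher; Cav1, the main caveolar coat protein, was at 432.8 ± 81.4 and 829.7 ± 446.0 CPM. Of the sorting genes, M6pr, the cation-dependent partner of Igf2r, was at 134.8 ± 33.8 and 122.6 ± 55.2 CPM and the adaptor Gga1 at 61.2 ± 5.66 and 86.6 ± 28.4 CPM. Igfbp1 and Igfbpl1 had 0 counts throughout, and Igfals, the third part of the serum IGF complex, had between 0 and 6 counts.

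**Figure D4:**
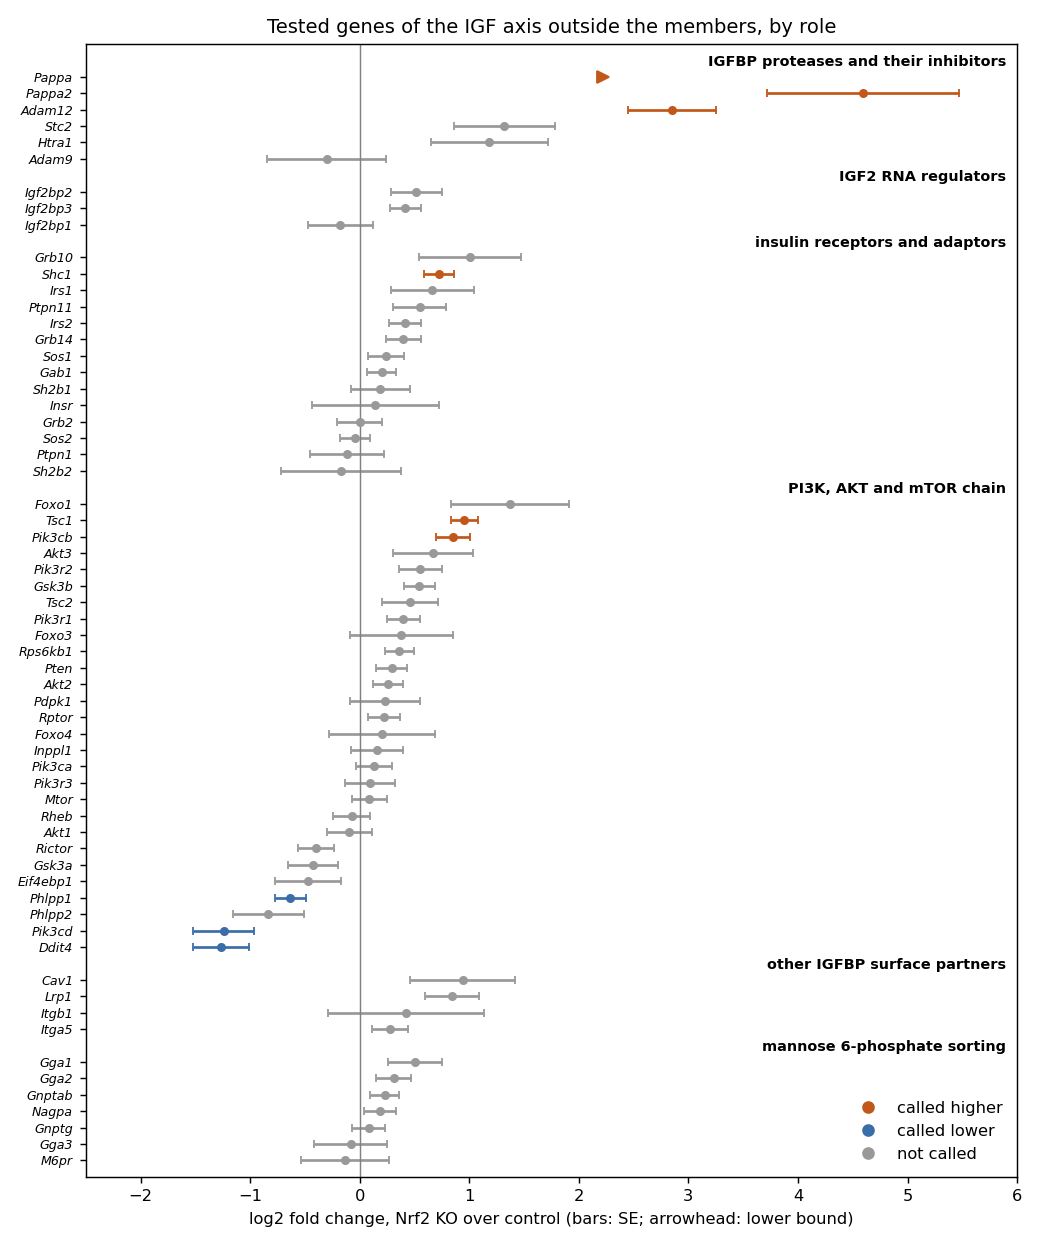
Log2 fold change of the 62 tested genes of the IGF axis outside the members, grouped by role, with the SE of the fit as bars; orange genes passed as higher, blue as lower and grey did not pass. The arrowhead for Pappa marks a lower bound, since its control libraries had 0 counts; the 3 genes that passed among the proteases lie at the right.

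The genes with the profile nearest to Igfbp5 and Igfbp6 were taken by the root-mean-square difference of log2 CPM, centred on each gene's mean, over the 6 libraries. For Igfbp5, among 9600 genes with a mean of at least 5 CPM, these were Pmp22 (0.74), Plin2 (0.82), Sema3e (0.94), C5ar2 (1.01) and Ptprz1 (1.01). Pmp22, a myelin membrane protein, stood at 22.9, 34.4 and 33.9 CPM in control replicates 1, 2 and 3 and at 1.15, 6.41 and 6.03 CPM in libraries labelled Nrf2 KO, with replicate 1 lowest in both groups as for Igfbp5. For Igfbp6, among 9601 genes, the nearest were H1fx (0.12), Loxl1 (0.13), Cnnm1 (0.15), Tead2 (0.18) and Gstt2 (0.19). Tead2, a transcription factor of the Hippo pathway, stood at 37.7, 36.6 and 39.5 CPM against 10.3, 9.29 and 9.99 CPM. Even the nearest profile to Igfbp5 was farther from it than the fifth nearest was from Igfbp6. This measure grows with the span of a profile, which was wider for Igfbp5. The distances therefore do not show which of them had more genes like it. All points share the 6 libraries, and a likeness of profile is a description.

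**Figure D5:**
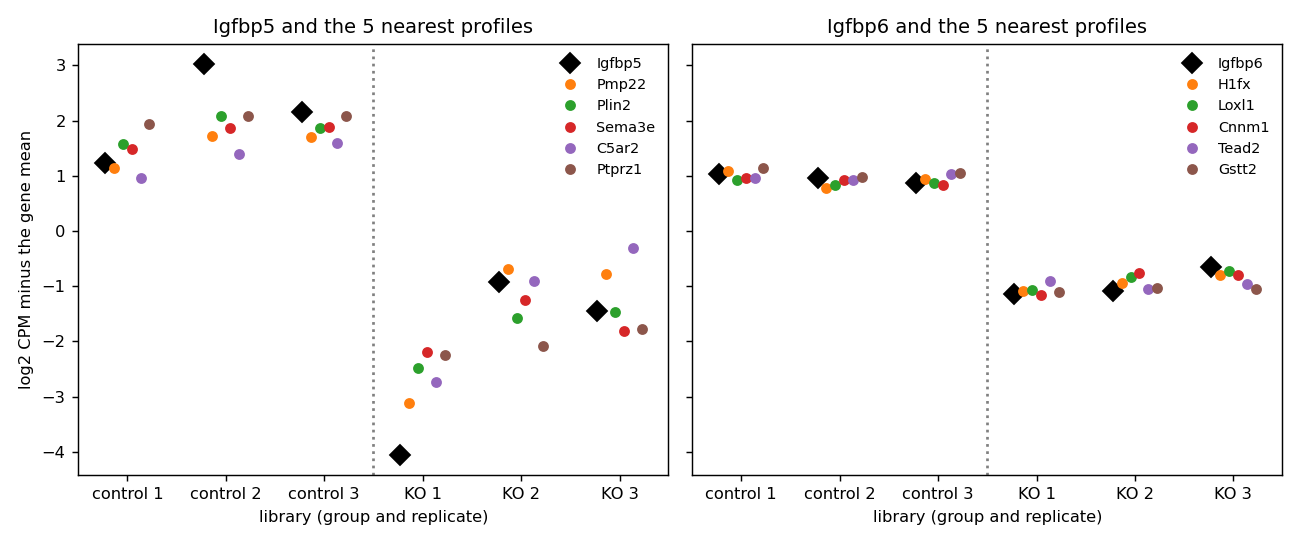
Log2 CPM minus the gene's mean in each library for Igfbp5 (left) and Igfbp6 (right), drawn as black diamonds, and for the 5 genes nearest to each, drawn as coloured points set side by side. Igfbp5 spreads from 3.03 in control replicate 2 to -4.06 in Nrf2 KO replicate 1, while Igfbp6 stays between 1.04 and -1.15.

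Markers of other cells also differed between the groups. Of 10 tested fibroblast and otic mesenchyme markers, 4 were higher (Col1a1, Col1a2, Pdgfra and Thy1) and 0 lower, where 4.83% of all genes passed as higher. Of the 6 that did not pass, Col3a1 (4452 ± 343.3 against 2821 ± 141.4 CPM) and Vim (6111 ± 558.5 against 4060 ± 581.2 CPM) had every control library above every library labelled Nrf2 KO, and Tbx18 and Twist1 the reverse. The summed level of the list lay between 12500 and 12700 CPM in controls and between 10950 and 13460 CPM in those labelled Nrf2 KO, with no marker at 0 in all libraries. Elsewhere, edgeR called 1 of 2 hair cell, 1 of 8 supporting cell and progenitor and 1 of 6 endothelial and pericyte markers higher. It called 2 endothelial and pericyte, 1 of 2 leukocyte and 1 of 4 neuron and glia markers lower. Of all genes, 3.45% passed as lower. The endothelial and pericyte calls include 2 that rest on low counts. Erg, called higher, had 0, 2 and 2 counts in controls and 42, 31 and 24 in libraries labelled Nrf2 KO. Des, called lower, had 31, 57 and 46 against 4, 17 and 6. Each passed the filter on low counts only through the group with more counts, so nothing is read from these 2 calls. The hair cell marker that passed was Myo7a (1.32 ± 0.207 against 20.3 ± 8.35 CPM). The groups overlapped for the other tested one, Myo6 (37.3 ± 6.25 against 48.3 ± 14.65 CPM), and the rest of that list had too few counts to test. The summed level was 33.4 to 45.5 CPM in control and 62.7 to 76.6 CPM in libraries labelled Nrf2 KO for hair cell markers, 417.8 to 496.6 and 423.9 to 592.3 CPM for supporting cell markers, and 175.8 to 196.9 and 168.4 to 278.9 CPM for endothelial and pericyte markers. It was 7.33 to 10.1 and 3.42 to 14.2 CPM for leukocyte markers, 15.8 to 18.9 and 14.2 to 24.5 CPM for melanocyte markers, and 19.2 to 26.2 and 10.9 to 17.9 CPM for neuron and glia markers. Kdr, Rgs5, Adgre1, Cd3e, Dct, Map2 and Sox10 had 0 counts in all libraries. A few genes made up most of some sums. Pdgfrb alone, of the endothelial and pericyte list, stood at 142.0 ± 13.6 and 182.2 ± 62.9 CPM. Vim and Col3a1 had the highest means of the fibroblast and otic mesenchyme list. These sums are therefore no measure of the share of a cell type. The part of these differences in the values of the IGF genes was not tested.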

How the data were processed

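Poly(A)-selected RNA of 3 control and 3 Nrf2 KO libraries was measured. The authors' deposited counts are whole numbers per gene symbol and library; HISAT2, fastp, FastQC and DESeq2 1.34.0 are named, per the submitters' processing notes, as is the human build hg18, with no role or order. The authors' deposited FPKM are 1 value per group. The sources used here name no counting tool, strand setting or annotation, so reads of overlapping or antisense genes cannot be separated. Of 30438 symbols, 650 begin with RGD and 1202 with Olr, as rat genes do, and 0 with the mouse prefix H2-. There were 0 columns of other samples.

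The main test was that of edgeR 4.0.16 (R 4.3.3): filterByExpr by group (minimum count 10, minimum total 15), TMM scaling, and a robust quasi-likelihood fit with the group as its only term, two-sided, with Benjamini-Hochberg adjustment over 14618 genes and a threshold of 0.05. The SE is that implied by the F statistic. Alternatives used other scalings and filters, DESeq2 1.42.0, limma-voom (limma 3.58.1), a replicate block, and left-out libraries. Deviations from the group mean correlated at 0.754, 0.696 and 0.310 between libraries of the same number, all above the limit of 0.1 set for using a replicate block. Libraries of different numbers were not correlated across the groups, so these values do not establish a pairing by number. The labels state no pairing. No 2 libraries of a group agreed within sampling noise (chi-square per degree of freedom at least 12.2). Gene length was taken from CPM over the deposited FPKM; its ratio between groups had a median of 0.997 over 12176 genes.

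The members and lists were chosen with earlier results of these data known. Of 148 list symbols 146 were matched, and Tmem219 and Ocm were not. Named were all members, in each role group up to 4 genes that passed with the smallest p or else the 2 with the highest CPM, the 5 nearest profiles to Igfbp5 and Igfbp6 among named genes (prior count 2 on the log2 scale), and Nfe2l2.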

Additional observations from a re-analysis of the deposited data

How the results depend on the processing

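Scaling (upper quartile, RLE or library size alone), limma-voom and a filter of 1 CPM left the counts over all genes and over the IGF axis list within 1.5 times of 706 higher and 505 lower, and 6 and 3. DESeq2 gave 1598 and 1318 over all genes and 12 higher in the list. With the replicate block they were 1520 and 1158 over all genes and 11 higher in the list, and among the members and the list genes the block changed no other call than those named above and Grb10, Ptpn11, Gsk3b and Foxo1, which became higher. With no filter on low counts 1 list gene was lower. Without 1 library the counts ranged from 139 to 2323 higher and 57 to 2162 lower over all genes, and from 0 to 19 and 0 to 6 in the list; only the fit without Nrf2 KO replicate 1 raised them. Without replicate 1 of both groups they were 3540 and 3253, and 31 and 8. The fits with fewer libraries assume 1 spread for both groups. The cause of these shifts was not tested.

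Log2 fold changes near 0 changed sign. For Igf2 it was 0.0484 with limma-voom, 0.0093 with the replicate block, and from -0.34 to 0.22 without 1 library. For Igf1r it ranged from -0.0958 to 0.063 without 1 library and was 0.0141 without replicate 1 of both groups; for Igf2r the range was -0.0531 to 0.229. M6pr ranged from -0.4031 to 0.187 without 1 library, above 0 without control replicate 2 or Nrf2 KO replicate 1, and was at 0.011 without replicate 1 of both groups. Of the other values of named genes under the alternatives, 282 kept their direction and their side of the threshold, 62 lost the call and 28 gained it. The count of neighbouring members whose levels do not overlap was 5 in control and 5 in Nrf2 KO, and 4 in the latter with lengths from the control FPKM alone. Depth limits Igf1, Igf2, Igfbp2, Igfbp6, Pappa and Pappa2, whose counts were low in every library. Levels near 3 counts cannot be told from 0.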
